A study of Mus musculus with 12 samples.

Results

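Glycosaminoglycan synthesis enzymes are described here through 10 genes of the deposited count table, which holds 52636 genes. They were chosen by name for their place in the pathway, and with earlier results of these data known: *Xylt1* and *Xylt2* for the start of the chains, *Ext1*, *Ext2*, and *Ndst1* for heparan sulfate, *Csgalnact1*, *Chsy1*, *Chst11*, and *Chst15* for chondroitin sulfate, and *Has2* for hyaluronan. Each symbol belonged to 1 gene of the table, and all 10 passed the filter on low counts.

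The libraries came from male C57BL/6J mice aged 12 weeks, and the cells were aortic SMCs sorted as single, viable, and GFP positive. Control mice, named GFPiSMC, carried Myh11-CreERT2 and the mT/mG reporter, and Tgfbr1/2iSMCKO mice carried these and floxed alleles of both TGF-β receptor genes (Tgfbr1f/f.Tgfbr2f/f). All mice received tamoxifen on 5 days, and the labels name 1 mg/d at 4 weeks and 2 mg/d at 11 weeks without tying a schedule to a library. The study places these libraries 1 week after deletion in mature aortas of both genotypes, which matches the schedule at 11 weeks. Each genotype had 3 animals, and each animal gave a library from the ascending/arch and another from the descending thoracic aorta, so that there were 12 libraries in 4 groups of 3. The Myh11 promoter limits Cre activity to smooth muscle, the transgene lies on the Y chromosome, and the controls had no floxed receptor alleles, so effects of the deletion and of the line that carries it cannot be told apart.

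Glycosaminoglycans are long sugar chains with a negative charge that hold water and bind growth factors in the arterial wall. Heparan sulfate and chondroitin sulfate are built in the Golgi on a core protein, beginning with xylose on a serine and followed by a short linker, a polymer of alternating sugars, and sulfate groups, whereas hyaluronan is made at the plasma membrane without a core protein. In the aortic media, chondroitin sulfate is carried chiefly by versican and small proteoglycans between the elastic laminae, and heparan sulfate by the proteoglycans of the basement membrane and the cell surface around SMCs.

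Total counts ran from 20467027 to 31392396 per library (median 27351101), from 9208 to 20000 sorted cells. Levels are CPM, read counts put on 1 scale across libraries by edgeR's TMM factors, and differences are log2 FC, the log2 of a ratio of levels. *Tgfbr1* and *Tgfbr2* did not differ between genotypes past an adjusted p of 0.05 (log2 FC 0.10, SE 0.12, adjusted p = 0.790, and −0.26, SE 0.11, adjusted p = 0.233, edgeR), and a count over a whole gene does not separate the deleted exons from the others. Smooth muscle markers summed to between 39788 and 47783 CPM in GFPiSMC and between 33862 and 42719 CPM in Tgfbr1/2iSMCKO libraries, while 7 fibroblast markers summed to at most 218 CPM. *Acta2* made up most of the smooth muscle sum (mean 30718 CPM in GFPiSMC and 26157 CPM in Tgfbr1/2iSMCKO libraries). Of the 7 smooth muscle markers, 4 lay above 0 and 3 below 0 in log2 FC between genotypes (median 0.23). The sum of 6 endothelial markers was 67.3 to 100.1 CPM in GFPiSMC and 53.8 to 105 CPM in Tgfbr1/2iSMCKO libraries, with 5 of the 6 above 0 in log2 FC (median 0.95), and that of 6 macrophage markers was 5.47 to 10.7 CPM and 7.12 to 17.7 CPM. Of the markers of these 4 cell types that were tested, *Cdh5* of endothelial cells was the 1 that differed between genotypes past the threshold (log2 FC 2.97, SE 0.70, adjusted p = 0.0250, edgeR), with 0 to 14 counts in GFPiSMC and 12 to 79 counts in Tgfbr1/2iSMCKO libraries. The part of such cells in the differences between genotypes was not tested. Because the RNA came from a pool of sorted cells, fewer cells that express a gene and less RNA per cell cannot be told apart.

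Loss of the TGF-β receptors went with lower transcripts for 3 of the 10 enzymes, and none of the 10 rose past the threshold. *Ext1* of heparan sulfate polymerization fell 2.91-fold, *Xylt1* of chain initiation 1.85-fold, and *Ndst1* of heparan sulfate sulfation 1.75-fold. A gene passed with a Benjamini-Hochberg adjusted p under 0.05 over 22320 genes in edgeR's quasi-likelihood test on 12 libraries with segment as a covariate, a rule by which 5.03% of all tested genes passed, 3.23% lower and 1.8% higher. Of the 10 enzymes, *Ext1* was the 1 that also changed by more than 2-fold, as did 2.67% of all genes. The median log2 FC was −0.20 over the 10 enzymes and 0.04 over all tested genes. In each of the 3 enzymes, all 6 Tgfbr1/2iSMCKO libraries lay below all 6 GFPiSMC libraries, a separation found for 2.89% of all genes. The levels of the 10 enzymes in every library show this separation beside the wide scatter of *Ext2*, *Xylt2*, *Chst15*, and *Has2*. The 12 libraries entered the test above as separate units, although each animal gave 2 of them. With both segments added up per animal, 3 animals against 3, *Ext1* was the 1 enzyme of 10 that passed, beside 451 of 24275 genes.

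**Figure D1:**
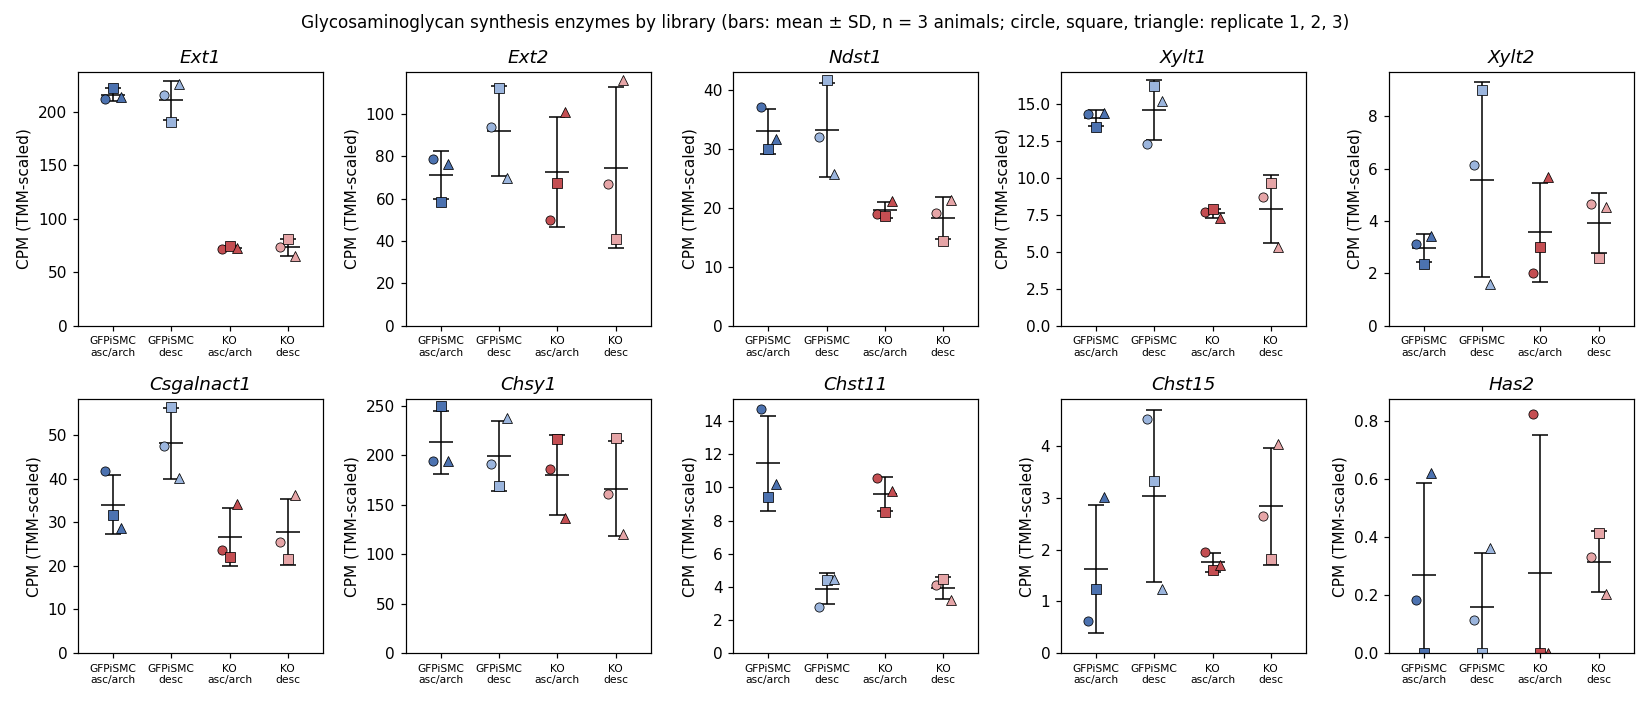
Level of each of the 10 enzymes in CPM (vertical axis, linear) in the 4 groups of genotype and aortic segment, where KO stands for Tgfbr1/2iSMCKO. Points are libraries, with a symbol for each replicate number, and bars give the mean and SD of 3 animals, not drawn below 0. *Ext1*, *Xylt1*, and *Ndst1* are lower in all 6 KO libraries, and *Chst11* is lower in all 6 descending libraries.

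*Xylt1* (ENSMUSG00000030657.11, GRCm38 chromosome 7, 117380979 to 117673580) encodes xylosyltransferase 1, which adds the first sugar of heparan and chondroitin sulfate chains to the core protein. In GFPiSMC SMCs, *Xylt1* was at 14.3, 13.5, and 14.4 CPM in replicates 1, 2, and 3 of the ascending/arch and at 12.3, 16.2, and 15.2 CPM in the same animals' descending segments. After receptor deletion it was at 7.69, 7.86, and 7.28 CPM in the ascending/arch and at 8.74, 9.65, and 5.30 CPM in the descending aorta. The highest Tgfbr1/2iSMCKO library thus stayed under the lowest GFPiSMC library in either segment. *Xylt1* thus fell by a log2 FC of −0.89 (SE 0.18, adjusted p = 0.00877, edgeR). With both segments of an animal added up, 3 animals against 3, *Xylt1* had a log2 FC of −0.88 and an adjusted p of 0.113 (edgeR). Without GFPiSMC replicate 2 its adjusted p was 0.0528 and without GFPiSMC replicate 3 it was 0.0599, within a range of 1.95e-06 to 1 over all alternatives. The upper end came from a test against a 2-fold change, which a gene that changed by less cannot pass.

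*Xylt2* (ENSMUSG00000020868.15, chromosome 11, 94663851 to 94677515) encodes the second xylosyltransferase, which catalyzes the same step. Its levels in the ascending/arch were 3.12, 2.37, and 3.43 CPM in GFPiSMC and 2.02, 3.01, and 5.67 CPM in Tgfbr1/2iSMCKO SMCs. In the descending aorta they were 6.14, 9.01, and 1.61 CPM and 4.64, 2.60, and 4.55 CPM. The genotypes overlapped throughout, and the range within GFPiSMC descending libraries alone covered every other *Xylt2* value. *Xylt2* rested on 40 to 257 counts per library, and its log2 FC of −0.12 (SE 0.39, adjusted p = 0.939, edgeR) had an SE larger than the value.

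*Ext1* and *Ext2* encode the partners of the heparan sulfate copolymerase complex, which lengthens the chain with alternating glucuronic acid and N-acetylglucosamine. *Ext1* (ENSMUSG00000061731.9, chromosome 15, 53064038 to 53346159) was at 212, 223, and 214 CPM in ascending/arch and at 215, 191, and 226 CPM in descending GFPiSMC SMCs. With the receptors deleted, *Ext1* was at 71.5, 74.8, and 72.9 CPM in the ascending/arch and at 73.8, 81.2, and 65.2 CPM in the descending aorta. The lowest GFPiSMC library held more than double the level of the highest Tgfbr1/2iSMCKO library. For *Ext1*, the log2 FC was −1.54 (SE 0.09, adjusted p = 3.43e-07, edgeR). *Ext1* also passed with both segments added up per animal (log2 FC −1.53, adjusted p = 0.000786), in a test against a 2-fold change (adjusted p = 0.00136), and without any 1 animal (log2 FC between −1.59 and −1.51), the adjusted p over all alternatives lying between 3.61e-69 and 0.00136.

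*Ext2* (ENSMUSG00000027198.16, chromosome 2, 93661028 to 93822568) had 78.7, 58.3, and 76.4 CPM in ascending/arch and 94.0, 112, and 69.6 CPM in descending GFPiSMC SMCs. Tgfbr1/2iSMCKO libraries had 49.8, 67.3, and 101 CPM in the ascending/arch and 66.8, 41.0, and 116 CPM in the descending aorta. Tgfbr1/2iSMCKO replicate 3 held the highest *Ext2* level of its genotype in both segments, and the genotypes overlapped. The log2 FC of *Ext2* was −0.14 (SE 0.24, adjusted p = 0.884, edgeR), and from −0.53 to 0.0401 without single animals.

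Because both partners were measured in the same library, their ratio does not depend on the scaling between libraries. This ratio was chosen after the levels had been seen. Per kilobase of exon, *Ext1* was above *Ext2* in 6 of 6 GFPiSMC libraries, by a ratio of 1.54 to 3.47 (median 2.49, mean 2.50 ± 0.668 SD). In Tgfbr1/2iSMCKO libraries, the ratio of *Ext1* to *Ext2* ran from 0.510 to 1.80 (median 1.00, mean 1.05 ± 0.463 SD), and *Ext1* was above *Ext2* in 4 of 6. The ratios of the genotypes overlapped, since Tgfbr1/2iSMCKO replicate 2 reached 1.80 in the descending aorta while GFPiSMC replicate 2 had 1.54 there. Averaged per animal on the log2 scale, the *Ext1* to *Ext2* ratio was 2.52-fold lower in Tgfbr1/2iSMCKO SMCs, with all 3 animals below the 3 GFPiSMC animals (two-sided exact permutation p = 0.1, the smallest that 3 animals against 3 can give). The same ratio for *Xylt1* over *Xylt2* was 1.82-fold lower (exact permutation p = 0.2). That of *Chsy1* over *Csgalnact1* went the other way, higher by 0.31 on the log2 scale (exact permutation p = 0.6, for 3 ratios compared).

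**Figure D2:**
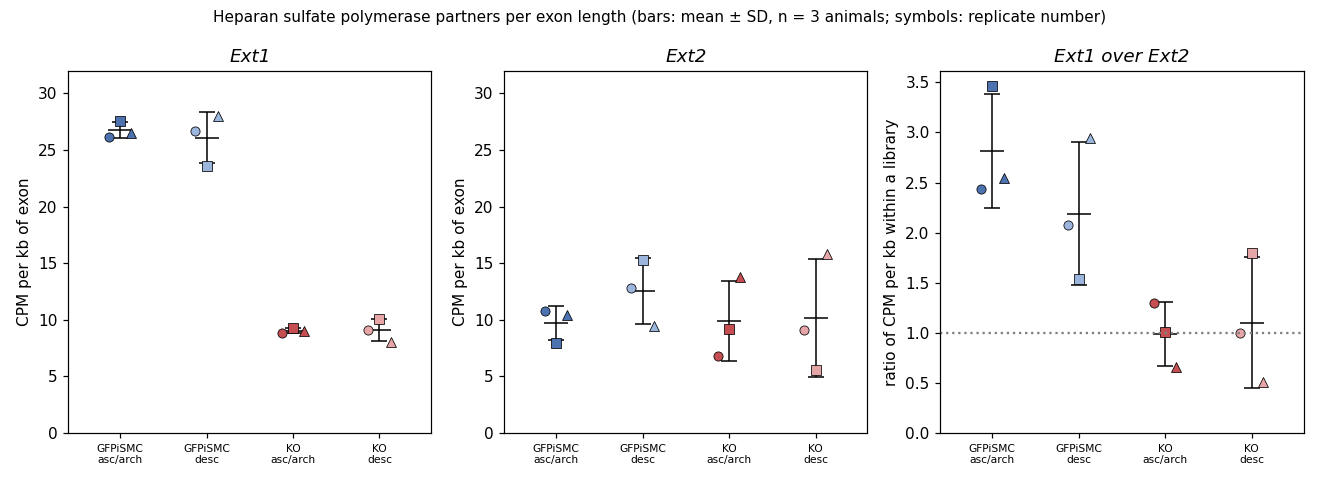
Levels of *Ext1* and *Ext2* in CPM per kilobase of exon and the ratio of *Ext1* to *Ext2* within each library, by group (KO, Tgfbr1/2iSMCKO). Points are libraries, bars are the mean and SD of 3 animals, and the dotted line marks a ratio of 1. *Ext1* falls to the level of *Ext2* in KO libraries, where the ratio lies between 0.510 and 1.80.

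*Ndst1* (ENSMUSG00000054008.8, chromosome 18, 60684494 to 60748650) encodes an N-deacetylase and N-sulfotransferase that begins the sulfation of heparan sulfate. It was at 37.1, 30.0, and 31.6 CPM in ascending/arch and at 31.95, 41.6, and 25.8 CPM in descending GFPiSMC SMCs. The Tgfbr1/2iSMCKO levels of *Ndst1* were 18.9, 18.6, and 21.1 CPM in the ascending/arch and 19.1, 14.4, and 21.3 CPM in the descending aorta. The genotypes did not overlap, and the gap was narrowest in the descending aorta between replicate 3 of each genotype. *Ndst1* fell by a log2 FC of −0.81 (SE 0.16, adjusted p = 0.00793, edgeR). The adjusted p was 0.115 with both segments added up per animal (log2 FC −0.79), 0.0613 without Tgfbr1/2iSMCKO replicate 1, and 0.0696 without GFPiSMC replicate 1, in a range of 2.37e-05 to 1 over all alternatives. As for *Xylt1*, the upper end came from the test against a 2-fold change.

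Of the chondroitin sulfate enzymes, *Csgalnact1* (ENSMUSG00000036356.15, chromosome 8, 68356781 to 68735146) adds the first N-acetylgalactosamine and so commits a chain to chondroitin sulfate. *Csgalnact1* was at 41.8, 31.7, and 28.8 CPM in ascending/arch and at 47.6, 56.5, and 40.3 CPM in descending GFPiSMC SMCs. In Tgfbr1/2iSMCKO SMCs, it was at 23.6, 22.0, and 34.2 CPM in the ascending/arch and at 25.4, 21.7, and 36.4 CPM in the descending aorta. Tgfbr1/2iSMCKO replicate 3 was the highest of its genotype in both segments and lay within the GFPiSMC range in the ascending/arch. In the descending aorta all 3 Tgfbr1/2iSMCKO libraries were below the 3 GFPiSMC libraries, as for 7.75% of all genes. The log2 FC was −0.57 (SE 0.19, unadjusted p = 0.00927, adjusted p = 0.116, edgeR). *Csgalnact1* passed in 2 of 18 alternatives, without Tgfbr1/2iSMCKO replicate 3 (log2 FC −0.81, adjusted p = 0.0234) and with a filter of 50 counts on average (−0.57, adjusted p = 0.0417), with adjusted p values up to 1 in the others. These others include the test against a 2-fold change, which a gene that changed by less cannot pass.

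*Chsy1* (ENSMUSG00000032640.10, chromosome 7, 66109515 to 66173798) encodes chondroitin sulfate synthase 1, which extends the chain. It was at 194, 249.8, and 194 CPM in ascending/arch and at 191, 169, and 238 CPM in descending GFPiSMC SMCs. In Tgfbr1/2iSMCKO SMCs, *Chsy1* was at 186, 216, and 136 CPM and at 161, 217, and 121 CPM in the same segments. The genotypes overlapped, although Tgfbr1/2iSMCKO replicate 3, the highest of its genotype for *Ext2* and *Csgalnact1*, was the lowest for *Chsy1* in both segments. *Chsy1* had a log2 FC of −0.25 (SE 0.16, adjusted p = 0.518, edgeR).

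The sulfotransferases *Chst11*, which sulfates position 4 of N-acetylgalactosamine, and *Chst15*, which adds a sulfate at position 6 to a unit that already carries one, were not changed by genotype past the threshold. Their log2 FC values between genotypes were −0.13 (SE 0.20, adjusted p = 0.865) and 0.01 (SE 0.40, adjusted p = 0.997, edgeR). *Chst15* (ENSMUSG00000030930.14, chromosome 7, 132235780 to 132317228) rested on 17 to 120 counts per library and lay between 0.623 and 4.53 CPM in GFPiSMC and between 1.60 and 4.05 CPM in Tgfbr1/2iSMCKO libraries. Of its exon bases, 17.9% lie under an antisense gene, *Gm10584*, and reads of both cannot be told apart without strand.

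*Has2* (ENSMUSG00000022367.7, chromosome 15, 56665627 to 56694539) encodes a hyaluronan synthase of the plasma membrane. In GFPiSMC SMCs, *Has2* had 5, 0, and 15 counts in the ascending/arch and 3, 0, and 9 counts in the descending aorta. Tgfbr1/2iSMCKO libraries had 24, 0, and 0 counts and 8, 10, and 6 counts in the same segments. A count of 0, found in 4 of 12 libraries, allows up to 3 counts by counting error alone, or 0.0965 to 0.145 CPM in these 4. No difference in *Has2* was detectable at this depth (log2 FC 0.52, SE 1.09, adjusted p = 0.906, edgeR), and leaving out animals moved its value between −0.85 and 1.95.

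To compare the enzymes with each other, CPM was divided by the length of the merged exons, and values are the mean ± SD over 6 libraries from 3 animals. In GFPiSMC SMCs, *Chsy1* had the highest level of the 10 at 49.3 ± 7.42 CPM per kilobase, then *Ext1* at 26.4 ± 1.53, *Ext2* at 11.1 ± 2.60, *Csgalnact1* at 8.07 ± 2.01, and *Ndst1* at 3.99 ± 0.675. *Xylt1* followed at 1.48 ± 0.140 CPM per kilobase, *Chst11* at 1.39 ± 0.826, *Xylt2* at 1.08 ± 0.699, *Chst15* at 0.345 ± 0.225, and *Has2* at 0.0503 ± 0.0567. Neighbors in this order had overlapping ranges for *Ext2* and *Csgalnact1* and from *Xylt1* downward, and separate ranges otherwise.

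In Tgfbr1/2iSMCKO SMCs, the order at the top was *Chsy1* at 41.4 ± 9.71, *Ext2* at 10.04 ± 3.97, and *Ext1* at 9.06 ± 0.641 CPM per kilobase, so that *Ext1* no longer stood apart from *Ext2*. *Csgalnact1* at 5.35 ± 1.27 and *Ndst1* at 2.28 ± 0.301 CPM per kilobase kept their places. *Chst11* at 1.22 ± 0.581, *Xylt2* at 0.942 ± 0.355, and *Xylt1* at 0.803 ± 0.153 CPM per kilobase overlapped with one another, and *Chst15* at 0.340 ± 0.138 and *Has2* at 0.0696 ± 0.0729 came last. *Xylt1* was the higher of both xylosyltransferases in 4 of 6 GFPiSMC and 3 of 6 Tgfbr1/2iSMCKO libraries. The spread between libraries differed by gene, with a coefficient of variation in GFPiSMC SMCs of 5.80% for *Ext1* and 9.43% for *Xylt1* against 65.0% for *Xylt2* and 65.3% for *Chst15*, genes with far fewer counts.

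Within each aortic segment, from a fit of 4 group means, *Ext1* was the 1 enzyme of 10 that passed. By this rule 1.41% of all genes passed in the ascending/arch and 1.72% in the descending aorta. The log2 FC of *Ext1* was −1.56 (SE 0.14, adjusted p = 7.72e-05) in the ascending/arch and −1.52 (SE 0.14, adjusted p = 9.35e-05) in the descending aorta. *Xylt1* had −0.89 in either segment (SE 0.26, adjusted p = 0.153 and 0.152), and *Ndst1* had −0.75 (SE 0.23, adjusted p = 0.185) and −0.86 (SE 0.23, adjusted p = 0.109, all edgeR). In both segments the 3 Tgfbr1/2iSMCKO libraries lay below the 3 GFPiSMC libraries for *Ext1*, *Xylt1*, and *Ndst1*, as they did for 10.1% of all genes in the ascending/arch and 7.75% in the descending aorta.

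With DESeq2 in place of edgeR, *Xylt1* passed in both segments (adjusted p = 0.0161 and 0.0153) and *Ndst1* in the descending one (0.0185), while over all alternatives the adjusted p of *Xylt1* reached 0.435 and 0.497 and that of *Ndst1* in the descending aorta 0.494. *Csgalnact1* had a log2 FC of −0.36 (SE 0.26, adjusted p = 0.694) in the ascending/arch and −0.79 (SE 0.26, adjusted p = 0.229, edgeR) in the descending aorta. A test of the difference between these effects gave *Csgalnact1* an unadjusted p of 0.265 and an adjusted p of 1.00 (edgeR), the smallest unadjusted p of the 10 enzymes. Of all 22320 genes, 0 passed this test by edgeR and 659 (2.95%) had an unadjusted p under 0.05, so a difference in genotype effect between segments was not found for any of the 10.

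**Figure D3:**
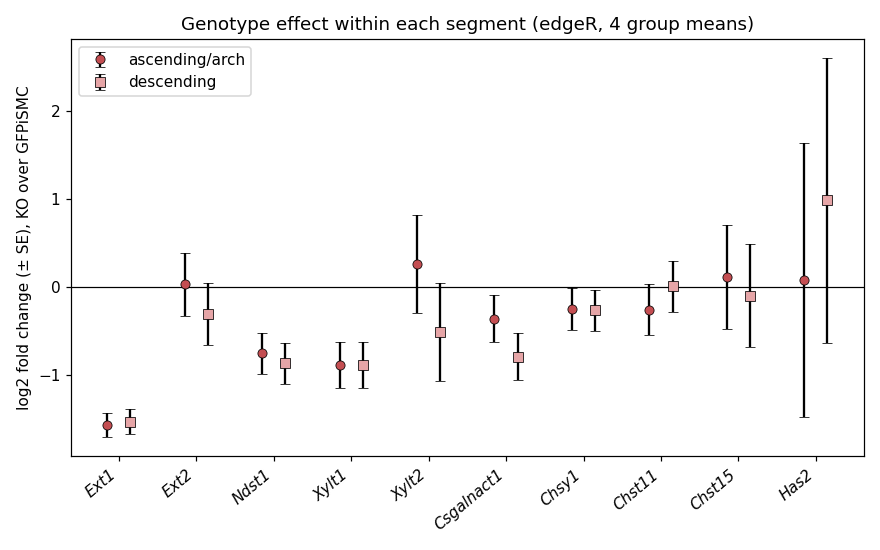
Log2 FC of Tgfbr1/2iSMCKO (KO) over GFPiSMC with its SE (vertical axis) for each of the 10 enzymes in the ascending/arch (circles) and in the descending aorta (squares), edgeR with 4 group means of 3 animals each. *Ext1* lies at −1.56 and −1.52, and *Has2*, with 0 to 24 counts per library, has the longest bars.

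Between segments, *Chst11* differed and the other 9 enzymes did not pass, in a comparison where 0.797% of all genes passed, 0.578% as lower in the descending aorta. *Chst11* (ENSMUSG00000034612.7, chromosome 10, 82985498 to 83195900) was at 14.7, 9.44, and 10.2 CPM in the ascending/arch of GFPiSMC replicates 1, 2, and 3 and at 2.80, 4.38, and 4.50 CPM in their descending aortas. In Tgfbr1/2iSMCKO animals, it was at 10.6, 8.49, and 9.76 CPM in the ascending/arch and at 4.10, 4.45, and 3.20 CPM in the descending aorta. *Chst11* was lower in the descending segment in 6 of 6 animals, and all 6 descending libraries lay under all 6 ascending/arch libraries, as for 0.6% of all genes.

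The log2 FC of *Chst11*, descending over ascending/arch, was −1.43 (SE 0.20, adjusted p = 0.00361, edgeR), or 2.69-fold lower. It passed with the animal as a block (−1.43, adjusted p = 0.0323) and without any 1 animal (−1.52 to −1.22), and it did not pass a test against a 2-fold change (adjusted p = 1, with the alternatives reaching down to 3.97e-10). Within GFPiSMC, *Chst11* had −1.56 (SE 0.30, adjusted p = 0.0504), and within Tgfbr1/2iSMCKO it had −1.29 (SE 0.30, adjusted p = 0.225, edgeR), in comparisons where 0.376% and 0.112% of all genes passed. With DESeq2 both passed (adjusted p = 3.69e-05 and 0.00208), and over the alternatives the adjusted p rose to 0.696 and 0.919.

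Most of the 7 fibroblast markers moved with segment in the same libraries. The sum over the 7 genes was 92.6 to 141 CPM in ascending/arch and 22.5 to 37.2 CPM in descending GFPiSMC libraries, and 68.4 to 218 CPM and 11.8 to 35.9 CPM in Tgfbr1/2iSMCKO libraries. Of the 6 that were tested, *Lum* and *Dcn* passed as lower in the descending aorta (log2 FC −4.30, adjusted p = 0.000344, and −2.30, adjusted p = 0.0418, edgeR). The markers *Dpt*, *Pi16*, *Clec3b*, and *Cygb* had at most 130, 66, 12, and 32 counts per library, with 1, 2, 4, and 4 libraries at 0. *Cygb* had a log2 FC in the other direction that did not pass (1.65, SE 1.08, adjusted p = 0.999, edgeR). The libraries hold GFP-positive cells of the Myh11 lineage, a gate meant to leave fibroblasts out, and the part of these transcripts in the *Chst11* difference was not tested.

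*Chst15* leaned the other way, with higher levels in the descending aorta in 5 of 6 animals. Its levels were 0.623, 1.24, and 3.02 CPM in the ascending/arch and 4.53, 3.33, and 1.25 CPM in the descending aorta of GFPiSMC replicates 1, 2, and 3. In Tgfbr1/2iSMCKO animals, *Chst15* was at 1.96, 1.60, and 1.71 CPM and at 2.65, 1.81, and 4.05 CPM. The segments overlapped, and the log2 FC of 0.80 (SE 0.40, unadjusted p = 0.0671, adjusted p = 0.970, edgeR) did not pass.

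For *Chst11*, as the enzyme that differed by region, the 250 bases upstream of the RefSeq transcription start (GRCm38.p6, chr10:82985247-82985496, plus strand) are shown with each CG dinucleotide in capitals:
Chst11 upstream: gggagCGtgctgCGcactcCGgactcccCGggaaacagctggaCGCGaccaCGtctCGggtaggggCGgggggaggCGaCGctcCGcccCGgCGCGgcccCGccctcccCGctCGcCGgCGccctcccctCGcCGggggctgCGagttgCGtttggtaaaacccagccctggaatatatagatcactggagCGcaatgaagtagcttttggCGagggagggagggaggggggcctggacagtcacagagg
This stretch has a GC content of 70% and 26 CG dinucleotides, against medians of 52.4% and 6 over 32851 RefSeq promoters, which places it at percentiles 91.2 and 91.4. The letters CAGAC, a form of the SMAD-binding element, occur in it on neither strand, and they occur in 42.2% of all promoters. The shorter core GTCT does occur in the stretch shown and was not counted over all promoters. Among the 6 promoters of 5 enzymes with a sequence, 4 held CAGAC, namely those of *Chsy1*, *Xylt2*, and both of *Chst15*, which overlap each other. No promoter sequence was available for *Ext1*, *Xylt1*, and *Ndst1*, the enzymes lower after receptor loss, or for *Csgalnact1* and *Has2*. TAATTA, a core recognized by homeodomain proteins, occurs in 0 of the 6 and in 4.84% of all promoters.

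The other genes of chain synthesis were read from lists of hyaluronan, linker, chondroitin and dermatan sulfate, and heparan sulfate enzymes, 49 genes with the 10 included, of which 44 were tested. *Has1*, *Chst13*, *Hs6st3*, *Hs3st4*, and *Hs3st6* did not pass the filter on low counts. Of the 44, 7 fell and 0 rose with receptor loss, beside 3.23% and 1.8% of all genes, and 4 of the 7 fell by more than 2-fold. An unadjusted p under 0.05 was found for 14 of the 44 and for 16.1% of all genes. The median log2 FC was −0.26, beside 0.04 over all genes. With both segments added up per animal 4 of the 7 passed, *Ext1*, *Chsy3*, *Chst3*, and *Sulf1*, and in a test against a 2-fold change 2 passed, *Ext1* and *Chst3*. In the comparison of the segments, *Chst11* was the 1 gene of the 44 that passed.

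**Figure D4:**
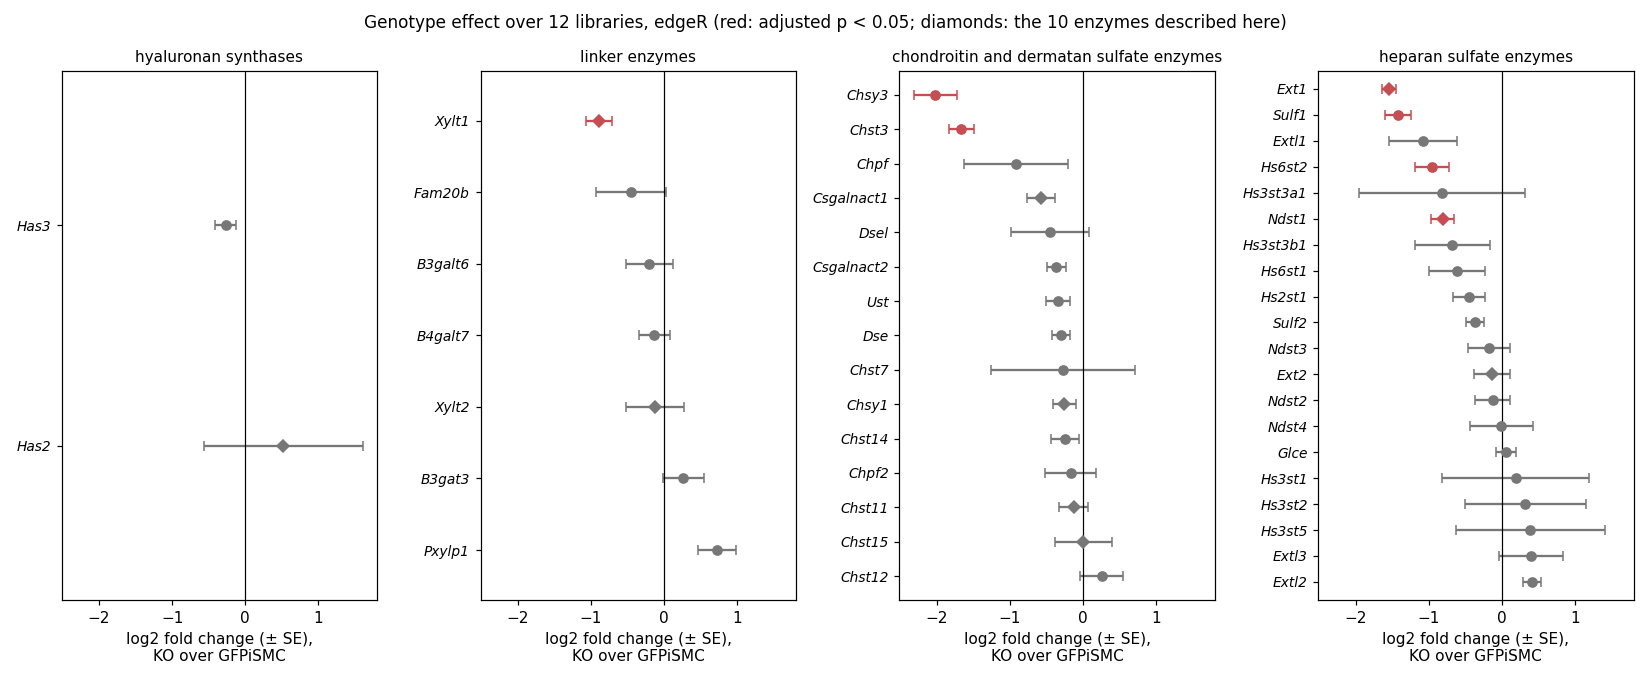
Log2 FC of Tgfbr1/2iSMCKO (KO) over GFPiSMC with its SE (horizontal axis) for the 44 tested genes of hyaluronan, linker, chondroitin and dermatan sulfate, and heparan sulfate synthesis, edgeR over 12 libraries. Red marks the 7 genes with an adjusted p under 0.05, which all lie below 0, and diamonds mark the 10 enzymes.

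Among 15 tested genes of chondroitin and dermatan sulfate synthesis, *Chsy3* and *Chst3* fell and 0 rose, beside 3.23% and 1.8% of all genes. The 4 enzymes described above did not pass. *Chpf* had 3 counts in GFPiSMC replicate 3 of the descending aorta and 137 to 1319 elsewhere. *Dsel* had 20 counts in Tgfbr1/2iSMCKO replicate 2 of the descending aorta and 757 to 1671 elsewhere. Neither gene passed in the fit over 12 libraries. *Chsy3*, a second chondroitin sulfate synthase, was at 9.75 to 14.8 CPM in GFPiSMC and 1.504 to 4.93 CPM in Tgfbr1/2iSMCKO libraries (log2 FC −2.02, SE 0.30, adjusted p = 0.00101, edgeR). *Chst3*, which sulfates position 6 of N-acetylgalactosamine, was at 14.7 to 26.4 CPM and 5.05 to 7.46 CPM (log2 FC −1.67, SE 0.17, adjusted p = 5.47e-05, edgeR). In both, all Tgfbr1/2iSMCKO libraries lay below all GFPiSMC libraries, as for 2.89% of all genes. *Chsy1*, the synthase among the enzymes described above, and *Chst11*, a sulfotransferase of position 4, had log2 FC values of −0.25 and −0.13. How these differ from the values of *Chsy3* and *Chst3* was not tested. *Chst11* was not the most abundant sulfotransferase of this list. *Chst12* ran from 63.1 to 174 CPM in GFPiSMC and from 63.9 to 185 CPM in Tgfbr1/2iSMCKO libraries. *Chst11* ran from 2.80 to 14.7 CPM and from 3.20 to 10.6 CPM.

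Of 20 tested genes of heparan sulfate synthesis and editing, 4 fell and 0 rose, beside 3.23% and 1.8% of all genes. The 4 were *Ext1*, *Ndst1*, *Sulf1*, and *Hs6st2*. *Sulf1*, an extracellular enzyme that removes sulfate from position 6 of glucosamine, was at 279 to 430.4 CPM in GFPiSMC and 97.7 to 187 CPM in Tgfbr1/2iSMCKO libraries (log2 FC −1.42, SE 0.17, adjusted p = 0.000257, edgeR). *Hs6st2*, which adds the sulfate at that position, was at 9.22 to 19.5 CPM and 4.77 to 9.24 CPM, with ranges that just overlapped (log2 FC −0.95, SE 0.24, adjusted p = 0.0333, edgeR). The *Hs6st2* call was lost in 10 of 18 alternatives. Of the 7 tested linker enzymes *Xylt1* passed, and of the 2 tested hyaluronan synthases neither passed, with −0.27 (SE 0.15, adjusted p = 0.432, edgeR) for *Has3*. *Has3* was at 14.0 to 17.2 CPM in GFPiSMC and 11.0 to 16.6 CPM in Tgfbr1/2iSMCKO libraries, while *Has2* reached at most 0.824 CPM.

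Genes for the supply of sugars and sulfate gave 3 lower and 0 higher of 16 tested, beside 3.23% and 1.8% of all genes (median log2 FC −0.16, against 0.04 over all genes). *Gfpt1*, the rate-limiting enzyme of hexosamine synthesis, fell (log2 FC −0.78, SE 0.16, adjusted p = 0.0118), as did *Uap1*, which makes UDP-N-acetylhexosamines (−0.70, SE 0.17, adjusted p = 0.0262), and *Impad1*, a Golgi phosphatase that clears the by-product of sulfation (−0.54, SE 0.14, adjusted p = 0.0417, all edgeR). None of the 3 passed with both segments added up per animal (adjusted p = 0.149, 0.110, and 0.185, over ranges of the alternatives up to 1), and the calls were lost in 6, 9, and 12 of 18 alternatives. These include the test against a 2-fold change, which a gene that changed by less cannot pass. For *Gfpt1*, GFPiSMC libraries lay at 41.4 to 59.8 CPM and Tgfbr1/2iSMCKO libraries at 21.6 to 37.8 CPM. For *Uap1*, the ranges were 38.6 to 54.7 CPM and 20.8 to 38.3 CPM. *Gfpt1* and *Uap1* were thus without overlap, as were 2.89% of all genes in this direction. For *Impad1*, the ranges of 175 to 265 CPM and 113 to 183 CPM overlapped.

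Core proteins that carry the chains gave 7 lower and 0 higher of 18 tested, beside 3.23% and 1.8% of all genes, and 4 of the 7 changed by more than 2-fold, beside 2.67%. The median log2 FC was −0.61, against 0.04 over all genes. Versican (*Vcan*) and biglycan (*Bgn*), carriers of chondroitin and dermatan sulfate, had log2 FC values of −1.70 (SE 0.16, adjusted p = 2.95e-05) and −1.81 (SE 0.09, adjusted p = 5.52e-08, edgeR). *Vcan* ran from 48.6 to 142 CPM in GFPiSMC and from 17.8 to 38.9 CPM in Tgfbr1/2iSMCKO libraries. *Bgn* ran from 3281 to 4712 CPM and from 986 to 1447 CPM. Both were without overlap, as were 2.89% of all genes in this direction. Decorin (*Dcn*), which also marks fibroblasts, had −0.12 (SE 0.46, adjusted p = 0.950, edgeR).

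Carriers of heparan sulfate among the 7 were the basement membrane proteoglycan agrin (*Agrn*, log2 FC −0.997, SE 0.13, adjusted p = 0.000381) and collagen XVIII (*Col18a1*, −1.14, SE 0.10, adjusted p = 7.8e-06). The membrane proteoglycan syndecan 4 (*Sdc4*) had a log2 FC of −0.64 (SE 0.10, adjusted p = 0.00234). Of the chondroitin sulfate carriers, collagen XV (*Col15a1*) had −6.62 (SE 0.45, adjusted p = 1.22e-06) and NG2 (*Cspg4*) had −0.99 (SE 0.22, adjusted p = 0.0198, all edgeR). *Cspg4* and *Sdc4* did not pass with both segments added up per animal (adjusted p = 0.126 and 0.0591, up to 1 over the alternatives). The alternatives include the test against a 2-fold change, which a gene that changed by less cannot pass.

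The genes whose levels followed those of the 3 lower enzymes most closely were sought among 9204 genes with a mean log2 CPM of at least 3, by Pearson's r of log2 CPM over 12 libraries. For *Ext1* these were *Nox4* (r = 0.994), an NADPH oxidase, *Col4a5* (0.993), a basement membrane collagen, and *Col5a2* (0.990), a fibrillar collagen. For *Ndst1* they were *Ltbp3* (0.982), which binds latent TGF-β, *Fstl3* (0.979), which binds activins, and *Prss57* (0.975). For *Xylt1* they were *Usp34* (0.970), a deubiquitinase, *Slc35f5* (0.965), and *Psme3* (0.950), a proteasome activator. These values describe the 12 libraries, which share 6 animals and fall into separate genotypes, so that a gene with a like difference between genotypes ranks high.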

How the data were processed

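Sorted SMCs from 12 libraries were sequenced with a low-input kit that does not mark strand. The authors aligned trimmed reads to GRCm38 with HISAT2 and quantified GENCODE gene models with StringTie. They deposited whole-number counts for each gene and library without normalization, and the step from StringTie's coverage to counts is not given in the sources used here. Counts of 2 (32279) outnumbered counts of 1 (22574), so counts divided by 2 were tried. Symbols, positions, and merged exon lengths came from GENCODE M21, which matched 52489 of 52636 genes.

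Counts were fitted with edgeR 4.0.16 in R 4.3.3 (filterByExpr, TMM, quasi-likelihood test, Benjamini-Hochberg adjustment over 22320 genes). The SE of a log2 FC is its size divided by the root of its F statistic. Genotype and segment came from an additive fit, and effects within a segment or genotype from 4 group means. DESeq2 1.42.0 and limma 3.58.1 served as alternatives, and the steps were tested on simulated data. p-values measure the spread between libraries of 3 animals per genotype, and the 2 segments of 1 animal are not independent. Members and gene lists were chosen with earlier results of these data known. Beside members, list genes with an adjusted p under 0.05 between genotypes were named, and the 3 genes most like each member that passed. Additional list genes were named after their values were seen. A list of genes for the breakdown of the chains is not reported here.

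Libraries that share genotype and number came from 1 animal. Their deviations from the group means correlated over 9210 genes with r = 0.187, −0.242, and 0.0240 in GFPiSMC and 0.0612, 0.377, and 0.661 in Tgfbr1/2iSMCKO animals. Between genotypes, equal numbers mark no shared animal.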

Additional observations from a re-analysis of the deposited data

How the results depend on the processing

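*Ext1* kept its direction and passed in all 18 alternatives of the genotype comparison. The 3 lower enzymes became 1 with counts summed per animal and 1 in the test against a 2-fold change, which asks for more than the fold itself. Leaving out each animal in turn gave 2 to 4 enzymes, and the synthesis lists, with 7 genes lower, gave 4 with summed counts, 2 against a 2-fold change, and 5 to 7 without single animals. DESeq2 gave 2 enzymes in the ascending/arch and 3 in the descending aorta in place of 1 each, and between segments it gave 1 in GFPiSMC and 1 in Tgfbr1/2iSMCKO in place of 0, as did a minimum mean of 50 counts in GFPiSMC (1). The 1 enzyme between segments became 0 against a 2-fold change. Calls over all genes moved too. Between genotypes, 1123 genes became 451 with summed counts, 137 against a 2-fold change, and 622 to 1066 without single animals. Between segments, 178 genes became 38 against a 2-fold change. DESeq2 called 847 genes in the ascending/arch and 855 in the descending aorta, against 315 and 385 by edgeR. Between segments it called 264 in GFPiSMC and 168 in Tgfbr1/2iSMCKO SMCs, against 84 and 25. A minimum mean of 50 counts gave 95 between segments in GFPiSMC. DESeq2 gave a value for 47666 genes and edgeR for 22320. The cause of the shifts with DESeq2 was not tested. With the replicate number as a block, which pairs no animals between genotypes, 3 enzymes passed between genotypes, 1 between segments, and 1 in each segment, and with the animal as a block 1 passed between segments. With the replicate number, 994 of all genes passed between genotypes, 143 between segments, and 264 and 320 within the ascending/arch and descending aorta. With the animal, 151 passed between segments. The block changed no call of an enzyme, and of the other genes named *Uap1* lost its call (adjusted p = 0.0503, up to 1 over its alternatives). Log2 FC values between genotypes turned sign for *Chst15* with DESeq2 on genotype alone (−0.0119), without segment (−0.0184), with the block (−0.0107), and without single animals (from −0.16 to 0.17), for *Xylt2* (0.0086) and *Chst11* (0.00115) with library size only, and without single animals for *Xylt2* (from −0.45 to 0.0746), *Ext2* (from −0.53 to 0.0401), and *Has2* (from −0.85 to 1.95), none of them past the threshold. Library size in place of TMM moved the median of all genes from 0.04 to 0.16 and the calls from 721 lower and 402 higher to 505 and 699, and the 3 enzymes still passed as lower. Depth limits *Has2*, *Chst15*, and *Xylt2* most, with at most 24, 120, and 257 counts per library.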
